A study of Mus musculus with 9 samples.

Results

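The 47 genes described here encode the machinery that copies chromosomal DNA and the enzymes that make its nucleotides, and they were selected by mouse gene symbol from a list drawn up for this role. They were followed in a table of raw read counts for 55401 genes, and all 47 had enough reads to be tested. By role, the set held 6 subunits of the replicative helicase, 8 origin-binding and licensing genes, 6 helicase activation genes, 9 polymerase and primase subunits, 6 genes of the sliding clamp and its loader, 2 flap removal and ligation genes, 3 subunits of the single-strand binding protein, 5 nucleotide supply enzymes and 2 E-type cyclins. RNA was sequenced from XEN cells, a female line of extra-embryonic endoderm stem cells from a Mus musculus molossinus X Mus musculus cross. All groups share that line and medium. WT_EV (n = 3) is wild type. DeltXp (n = 2) has the genotype label paternal Xist deletion, which the series title describes as a deletion upstream of Xist. DeltXp_DeltXm (n = 2) is homozygous for the deletion, and WT_clone (n = 2) consists of wild-type clones. The titles name both DeltXp libraries D1 and both DeltXp_DeltXm libraries D3. If each name stands for 1 line, an effect of the line cannot be told apart from one of the genotype. The labels explain neither EV nor D1 nor D3, and they do not say where the deletion starts and stops. Whether the WT_EV libraries are separate cultures is not stated, and the p-values below then measure only the spread between these samples, which may be technical. In bulk samples fewer cells in S phase and less RNA per cell cannot be told apart.

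Before S phase, the origin recognition complex, with Cdc6 and Cdt1, loads rings of the Mcm helicase onto DNA. Cyclin E with its kinase partner helps to start the phase, Cdc45 and the GINS complex then turn the loaded rings into active helicases, and polymerase alpha with primase starts the new strands that polymerases delta and epsilon extend on the Pcna clamp. Many of these genes are textbook targets of the E2F factors, which raise their transcription late in G1.

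Total counts ranged from 14352719 to 29335803 per library in the 7 WT_EV and deletion libraries. Xist was counted 12244 to 26048 times per WT_EV library and 131675 to 400096 times per deletion library. Because the deletion is described as upstream of Xist, this count does not check it. The RNA classes in the libraries differed with the groups. Non-polyadenylated RNAs, namely Rn7sk and replication-dependent histone genes, took 1.97% to 3.57% of each WT_EV library but 0.00129% to 0.00687% of each deletion library. The part of this difference in the results below was not tested. The 11 markers of extra-embryonic endoderm, all of which had enough reads to be tested, took a summed 3.06% to 4.16% of the uncorrected counts in WT_EV, 0.934% to 2.13% in DeltXp and 1.54% to 1.76% in DeltXp_DeltXm, with Col4a1 at 0 counts in DeltXp 1. After the correction described next, 6 of the 11 were called higher and 5 did not pass in DeltXp (median log2 change 0.91), and 4 were higher and 7 did not pass in DeltXp_DeltXm (median 0.54), so the sums and the corrected changes point in opposite directions. Markers of other cell types were near 0: the summed pluripotent markers had 15 to 44 counts, trophoblast markers 9 to 48 and fibroblast markers 0 to 1. Blood markers had 13 to 86, nearly all from Cd68. Sox2, Tfap2c, Hand1, Col1a2 and Col3a1 were at 0. The pluripotent marker Klf2 (4 to 43 counts) and the trophoblast marker Eomes (6 to 46) were called higher in both deletion groups after correction. Neither passed without it.

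The 2 deletion groups also differed from WT_EV in how a gene's count depended on its GC content, so each gene is given here mainly as a corrected CPM. CPM scales a count to the library total, here after TMM scaling (which matches libraries over most genes) and after dividing out a smooth curve of GC content and transcript length fitted in each library. Corrected CPM compare the same gene between libraries, not one gene with another. Changes are log2 differences from the edgeR quasi-likelihood test on the counts with those curves as offsets. A gene was called higher or lower at a Benjamini-Hochberg adjusted p under 0.05 over all 15331 genes tested, and intervals are 95% intervals. Both deletion groups are compared with the same WT_EV libraries, so the 2 comparisons are not independent and their values are set side by side only.

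In DeltXp, 25 of the 47 replication genes fell and 3 rose, and 19 did not pass the test. Of all genes tested, 24.9% were called lower and 25.5% higher. The median log2 change of the 47 genes was -0.88, against -0.02 for all genes tested, and their changes ran from -4.61 to 1.70. Levels in DeltXp lay below all WT_EV libraries for 29 members and above them for 6. In DeltXp_DeltXm, 18 fell, 5 rose and 24 did not pass, beside 20.4% lower and 22.6% higher among all genes. There the members' median was -0.26, against 0.06 for all genes, and the range was -3.60 to 1.39. Levels in DeltXp_DeltXm lay below all WT_EV libraries for 21 members and above them for 9. The share of all genes that lay apart in this way was not counted for either group. These separation counts therefore show nothing particular to the members. The share of members called lower was thus above that of all genes in both comparisons, and the share called higher was below it.

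The genes that rose in DeltXp were Orc2, Orc4 and Gins3, and those that rose in DeltXp_DeltXm were Orc2, Orc3, Orc4, Gins3 and Rpa3. Those that fell in DeltXp_DeltXm were Mcm2, Mcm3, Mcm5, Mcm7, Cdc6, Cdc45, Gins2, Mcm10, Pola2, Prim2, Pold1, Pold2, Pole, Rfc2, Rfc3, Rfc5, Tyms and Tk1. Those that fell in DeltXp were the same genes without Gins2, and also Mcm6, Gins4, Pold3, Fen1, Rrm1, Rrm2, Dut and Ccne1. Under every one of the 17 settings run for DeltXp, 17 of its 25 lower calls and all 3 higher calls passed. For DeltXp_DeltXm, 11 of 18 lower calls and 3 of 5 higher calls passed in all 17. Before TMM scaling and correction, the 47 genes together took 0.541% to 0.645% of all counts in WT_EV. They took 0.328% to 0.332% in DeltXp and 0.435% to 0.455% in DeltXp_DeltXm. After TMM scaling alone, their summed CPM was 4655 to 5544 in WT_EV and 3712 to 4178 in DeltXp. It was 4673 to 4825 in DeltXp_DeltXm, within the WT_EV range.

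**Figure D1:**
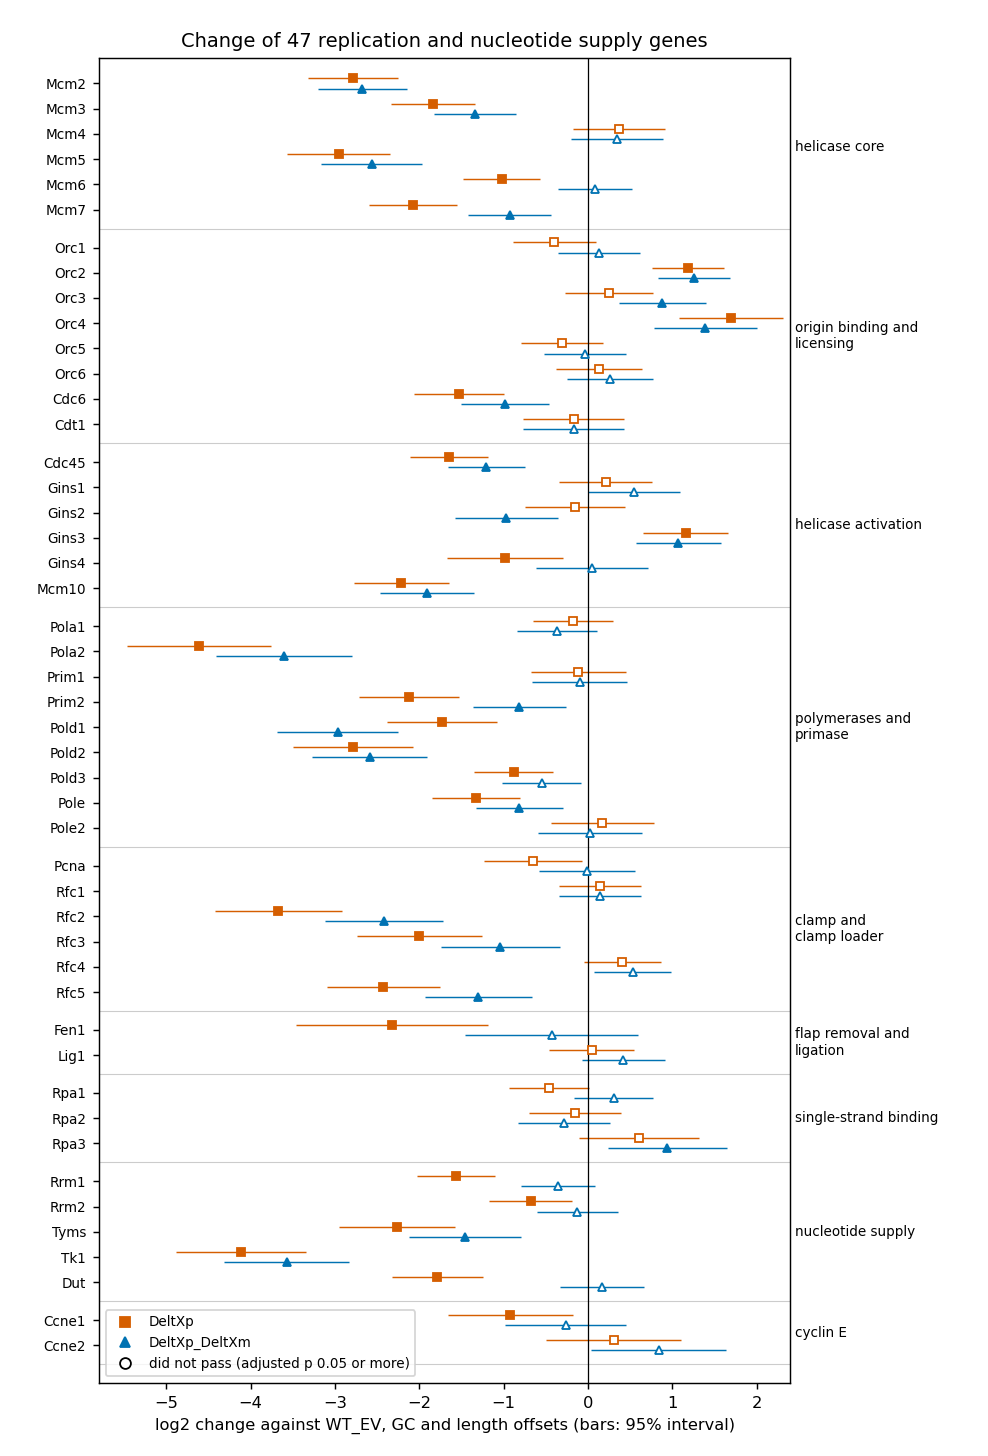
Log2 change of each of the 47 genes against WT_EV (horizontal axis, corrected for GC content and length), by role, for DeltXp and DeltXp_DeltXm, with 95% intervals. The values run from -4.61 to 1.70 in DeltXp, and most helicase, polymerase and nucleotide supply genes lie left of 0 while Orc2, Orc4 and Gins3 lie right of it.

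Without the GC and length correction, 14 members were called higher and 25 lower in DeltXp, beside 32.2% and 40.1% of all genes. In DeltXp_DeltXm the counts were 18 higher and 21 lower, beside 30.9% and 36.0%. The correction moved the median of all genes from -0.35 to -0.02 in DeltXp and from -0.15 to 0.06 in DeltXp_DeltXm. The lower calls in DeltXp were the same with and without the correction for 21 members. Mcm6, Prim2, Rrm1 and Rrm2 were called lower with the correction only. In the other direction, 11 members not called with the correction were called higher without it, among them Mcm4, Pola1, Prim1, Pole2, Orc5 and Ccne2. No member was called higher in one of the 2 fits and lower in the other.

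Promoter sequence was examined because the set is made of genes that are classically under E2F control. RefSeq promoters on GRCm38.p6 covered 39 of the 47 members, with windows from 250 bases before to 50 bases after the start. The E2F motif was searched as TTTCCCGC or TTTGGCGC on both strands. Either form was present in promoters of 13 of the 39 members (33.3%), against 1.80% of the 27025 genes with a promoter and 1.56% of the 32851 promoters of the same length. CCAAT, searched on both strands, was present in 23 members (59.0%), against 41.1% of genes and 37.4% of promoters. TTTGAA was present in 5 members (12.8%), against 20.2% of genes and 17.9% of promoters. Of the 13 members with an E2F match, 8 were lower in DeltXp, 1 was higher and 4 were not called. Of the 26 without one, 13 were lower, 2 were higher and 11 were not called. The 200 bases before the start are printed 5′ to 3′ on the gene's own strand for 4 helicase subunits and for the large and the second subunit of polymerase alpha, because these genes share a complex but differ in how they changed. Capitals mark the E2F letters and CCAAT, each in either orientation.
Mcm2 (chr6:88898781-88898980, minus strand): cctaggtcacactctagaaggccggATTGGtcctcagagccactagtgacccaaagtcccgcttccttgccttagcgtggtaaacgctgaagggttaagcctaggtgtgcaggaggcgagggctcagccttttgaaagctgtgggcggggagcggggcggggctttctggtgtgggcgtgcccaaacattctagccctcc
Mcm3 (chr1:20820313-20820512, minus strand): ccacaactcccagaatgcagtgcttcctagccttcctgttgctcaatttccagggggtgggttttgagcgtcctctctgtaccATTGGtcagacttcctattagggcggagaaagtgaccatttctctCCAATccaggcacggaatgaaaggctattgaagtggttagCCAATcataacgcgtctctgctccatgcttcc
Mcm5 (chr8:75109309-75109508, plus strand): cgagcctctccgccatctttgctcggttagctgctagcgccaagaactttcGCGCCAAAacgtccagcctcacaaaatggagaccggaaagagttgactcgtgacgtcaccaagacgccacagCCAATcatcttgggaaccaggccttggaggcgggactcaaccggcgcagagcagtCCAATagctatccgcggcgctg
Mcm6 (chr1:128359706-128359905, minus strand): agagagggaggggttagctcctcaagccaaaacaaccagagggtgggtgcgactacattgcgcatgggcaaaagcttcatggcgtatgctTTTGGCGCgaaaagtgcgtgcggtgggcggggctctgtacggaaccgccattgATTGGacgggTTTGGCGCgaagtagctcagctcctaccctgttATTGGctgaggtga
Pola1 (chrX:93632156-93632355, minus strand): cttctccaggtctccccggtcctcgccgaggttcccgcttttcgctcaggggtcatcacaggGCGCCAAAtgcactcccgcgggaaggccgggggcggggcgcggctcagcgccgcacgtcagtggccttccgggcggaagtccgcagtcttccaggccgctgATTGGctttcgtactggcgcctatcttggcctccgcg
Pola2 (chr19:5964207-5964406, minus strand): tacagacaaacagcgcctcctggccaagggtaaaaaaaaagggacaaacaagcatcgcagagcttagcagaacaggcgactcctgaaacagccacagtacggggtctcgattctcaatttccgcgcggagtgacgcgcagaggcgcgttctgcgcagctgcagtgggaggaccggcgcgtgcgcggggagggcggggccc
The Mcm6 window held the letters TTTGGCGC at 47 and 110 bases before the start, and the Mcm5 and Pola1 windows held the reverse complement at 149 and 138 bases. Of the motifs marked in capitals, the printed Mcm2 bases held CCAAT letters only. They also held TTTGAA, which is not marked. The printed Mcm3 bases held CCAAT letters only too, but Mcm3 has both E2F forms in its searched promoter, outside the 200 bases shown. The printed Pola2 bases held neither motif. A match is a stretch of letters, not a site shown to be bound.

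Of the 6 helicase subunits, 5 fell in DeltXp and 4 in DeltXp_DeltXm. The median log2 change of the 6 was -1.96 and -1.13. Mcm5 (ENSMUSG00000005410, chr8:75109569-75128439 on GRCm38, plus strand), one of the subunits of the ring, had the largest corrected change among them in DeltXp, and Mcm2 had it in DeltXp_DeltXm. Its corrected CPM was 317, 278 and 208 in WT_EV, 39.0 and 30.0 in DeltXp, and 41.5 and 48.9 in DeltXp_DeltXm. Every deletion library lay far below every WT_EV library. Mcm5 fell by 2.96 on the log2 scale in DeltXp (SE 0.27, interval -3.57 to -2.34, adjusted p = 8.56e-05) and by 2.57 in DeltXp_DeltXm (SE 0.27, interval -3.17 to -1.96, adjusted p = 0.000236). Mcm2 fell by 2.79 (adjusted p = 6.65e-05) and 2.67 (adjusted p = 0.000131). Its levels of 190 to 226 in WT_EV did not overlap the 26.0 to 34.3 of the 4 deletion libraries. Mcm3 fell by 1.84 and 1.34. Before correction the changes of these 3 subunits were larger, for example -4.24 and -3.48 for Mcm5.

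Mcm7 (chr5:138164583-138172422, minus strand) had corrected CPM of 158, 149 and 153 in WT_EV, 33.9 and 38.8 in DeltXp, and 67.6 and 93.7 in DeltXp_DeltXm. The 3 groups did not overlap, with DeltXp_DeltXm in between. Mcm7 fell by 2.08 in DeltXp (SE 0.23, adjusted p = 0.000183) and by 0.93 in DeltXp_DeltXm (SE 0.22, adjusted p = 0.00849). Mcm6 (chr1:128331590-128359664, minus strand) had levels of 268, 236 and 234 in WT_EV, 111 and 131 in DeltXp, and 242 and 279 in DeltXp_DeltXm. Only its DeltXp libraries stood apart. It fell by 1.02 in DeltXp (SE 0.20, interval -1.48 to -0.56, adjusted p = 0.00293), and its change in DeltXp_DeltXm was 0.08 (interval -0.36 to 0.53, adjusted p = 0.757). Without correction the DeltXp change of Mcm6 was -0.53 and did not pass (adjusted p = 0.0551). Mcm4 was the subunit with no fall in either group. Its levels were 318, 293 and 432 in WT_EV, 523 and 376 in DeltXp, and 414 and 467 in DeltXp_DeltXm, and the groups overlapped. Its changes were 0.37 (interval -0.17 to 0.91) and 0.34 (interval -0.20 to 0.89), which did not pass, while without correction they were 1.08 and 1.07 and passed.

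With GC content taken as the mean over a gene's transcripts, an alternative added after seeing the data, the change of Mcm2 was -1.02 and -0.70 and that of Mcm7 -3.56 and -2.34. In DeltXp_DeltXm the Mcm7 call was lost when DeltXp_DeltXm 1 was left out (adjusted p = 0.0545). Per kilobase of transcript and before the correction, mean WT_EV levels of Mcm5 (104 CPM per kb), Mcm3 (95.1) and Mcm4 (72.9) were among the highest of the 47 genes. In DeltXp, Mcm4 was the highest of all 47 at 155 CPM per kb.

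**Figure D2:**
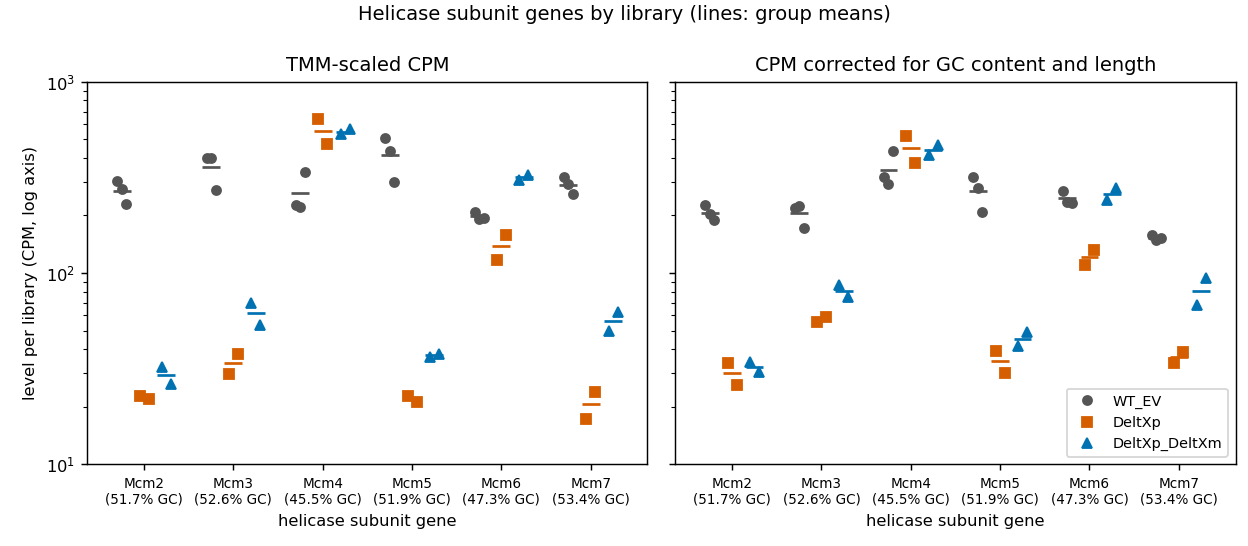
Level of each helicase subunit in each of the 7 libraries (log axis, CPM), before and after the correction for GC content and length, with 1 point per library. After correction, Mcm2 and Mcm5 lie between 190 and 317 in WT_EV and between 26.0 and 48.9 in all deletion libraries, whereas the Mcm4 points overlap between groups.

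The origin-binding and licensing genes moved in both directions, with medians of -0.02 in DeltXp and 0.20 in DeltXp_DeltXm. Of the 8, 2 rose and 1 fell in DeltXp, and 3 rose and 1 fell in DeltXp_DeltXm. Orc4 (ENSMUSG00000026761, chr2:48902824-48950277, minus strand), a subunit of the origin recognition complex, had corrected CPM of 40.3, 39.2 and 69.9 in WT_EV, 166 and 157 in DeltXp, and 120 and 142 in DeltXp_DeltXm. All deletion libraries were above all WT_EV libraries. Orc4 rose by 1.70 in DeltXp (SE 0.27, interval 1.08 to 2.31, adjusted p = 0.00101) and by 1.39 in DeltXp_DeltXm (SE 0.27, interval 0.78 to 2.01, adjusted p = 0.00363). Its change before correction was 3.98 and 2.98. Orc2, another subunit of the complex, rose by 1.18 and 1.25. Orc3 rose by 0.88 in DeltXp_DeltXm (adjusted p = 0.0133), a call that was lost without DeltXp_DeltXm 2, and had a change of 0.25 in DeltXp (adjusted p = 0.387). Cdc6, the ATPase that helps to load the helicase, was the member of the group that fell, by 1.53 (adjusted p = 0.000849) and 0.99 (adjusted p = 0.00825, lost without DeltXp_DeltXm 2). Orc1, Orc5 and Orc6 had changes between -0.40 and 0.26 that did not pass. Cdt1, the partner of Cdc6 in loading, had a change of -0.17 in both groups after correction and of -3.53 in DeltXp before it. Some exon bases of Orc2 (29.8%) and Orc1 (10.8%) overlap Nif3l1 and Gm12743, and since the strand setting of the counting is not given, their reads could be shared.

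Among the helicase activation genes, 3 of 6 fell and 1 rose in each deletion group. Mcm10 (ENSMUSG00000026669, chr2:4989714-5012791, minus strand), which helps the loaded helicase to start, had corrected CPM of 112, 104 and 135 in WT_EV, 22.5 and 27.8 in DeltXp, and 34.2 and 27.9 in DeltXp_DeltXm. All 4 deletion libraries lay below the lowest WT_EV library. Mcm10 fell by 2.21 in DeltXp (SE 0.25, interval -2.78 to -1.65, adjusted p = 0.000193) and by 1.91 in DeltXp_DeltXm (SE 0.25, interval -2.47 to -1.36, adjusted p = 0.000545). Cdc45, the helicase cofactor, fell by 1.64 and 1.21. The 4 GINS subunits, which form one complex, did not move together. Gins3 rose by 1.16 (adjusted p = 0.00249) and 1.07 (adjusted p = 0.00473). Gins4 fell by 0.98 in DeltXp (adjusted p = 0.0241), a call lost without WT_EV 1 or DeltXp 1, and was at 0.05 in DeltXp_DeltXm. Gins2 fell by 0.97 in DeltXp_DeltXm (adjusted p = 0.0182), lost without WT_EV 1 or DeltXp_DeltXm 1, and 67.3% of its exon bases overlap Gse1. Gins1 had changes of 0.21 and 0.54, which did not pass.

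Of the 9 polymerase and primase genes, 6 fell in DeltXp and 5 in DeltXp_DeltXm, with medians of -1.33 and -0.81. Pola2 (ENSMUSG00000024833, chr19:5940542-5964202, minus strand), the regulatory subunit of polymerase alpha, had the largest corrected change of the 47 genes. Its corrected CPM was 306, 354 and 169 in WT_EV, 12.5 and 10.2 in DeltXp, and 21 and 24.5 in DeltXp_DeltXm. The deletion libraries did not come near the lowest WT_EV library. Pola2 fell by 4.61 in DeltXp (SE 0.38, interval -5.47 to -3.75, adjusted p = 6.16e-05) and by 3.60 in DeltXp_DeltXm (SE 0.36, interval -4.41 to -2.79, adjusted p = 0.000197). Before correction its changes were -3.74 and -2.74. With GC content as the mean over transcripts, the alternative added after seeing the data, they were -2.56 and -1.71. Pola1 (chrX:93304767-93632155, minus strand), the catalytic subunit of the same polymerase and an X-linked gene, behaved otherwise. Its levels were 126, 124 and 126 in WT_EV, 129 and 92.9 in DeltXp, and 95.1 and 99.2 in DeltXp_DeltXm. Its changes of -0.18 and -0.37 did not pass after correction, whereas before it they were 1.90 and 1.24.

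The primase subunits also differed. Prim2 (chr1:33453810-33669795, minus strand), the large subunit, had corrected CPM of 80.5, 59.9 and 64.1 in WT_EV, 13.8 and 17.5 in DeltXp, and 41.6 and 36.0 in DeltXp_DeltXm. The 3 groups did not overlap. Prim2 fell by 2.12 in DeltXp (SE 0.26, interval -2.71 to -1.53, adjusted p = 0.000279) and by 0.81 in DeltXp_DeltXm (SE 0.25, adjusted p = 0.0254). Before correction its change was -0.46 in DeltXp and 0.56 in DeltXp_DeltXm, so the direction in the second group depends on the correction, and that call was lost without WT_EV 1, DeltXp_DeltXm 1 or DeltXp_DeltXm 2, and with offsets for GC content only (adjusted p = 0.115). Prim1, the catalytic subunit, had changes of -0.11 and -0.10. For polymerase delta, the raw counts of the catalytic subunit Pold1 were 1534, 2239 and 1199 in WT_EV, 51 and 44 in DeltXp, and 19 and 26 in DeltXp_DeltXm. The log2 change of Pold1 was -1.73 (adjusted p = 0.00127) and -2.97 (adjusted p = 0.000262) after correction, and -5.30 and -6.53 before it. Counts of Pold2, its small subunit, were 2867, 2563 and 1278, then 18 and 35, then 34 and 42, and its log2 change was -2.78 (adjusted p = 0.000192) and -2.59 (adjusted p = 0.000372). Both subunits fell in both deletion groups. Each deletion library held 51 or fewer counts of either gene. Pold3 fell by 0.88 in DeltXp (adjusted p = 0.00688), with -0.55 in DeltXp_DeltXm (adjusted p = 0.0564). Pole, the catalytic subunit of polymerase epsilon, fell by 1.33 (adjusted p = 0.00153) and 0.81 (adjusted p = 0.0179). Both calls were lost with offsets for GC content only, where the changes were -0.60 (adjusted p = 0.0504) and -0.27 (adjusted p = 0.353), and the DeltXp_DeltXm call also without WT_EV 1, WT_EV 2 or DeltXp_DeltXm 2. Pole2 had changes of 0.17 and 0.03.

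After correction, the clamp and the largest clamp loader subunit were called in neither group, while 3 of the small loader subunits fell in both. Rfc2 (ENSMUSG00000023104, chr5:134581366-134601805, plus strand), one of the small subunits, had corrected CPM of 53.9, 45.7 and 43.2 in WT_EV, 3.27 and 4.16 in DeltXp, and 6.79 and 11 in DeltXp_DeltXm. The groups were ordered without overlap, with DeltXp lowest. Rfc2 fell by 3.67 in DeltXp (SE 0.34, interval -4.42 to -2.92, adjusted p = 8.04e-05) and by 2.42 in DeltXp_DeltXm (SE 0.31, interval -3.11 to -1.72, adjusted p = 0.000523). The other small subunits that fell were Rfc5, with log2 changes of -2.43 and -1.30, and Rfc3, with -2.0 (adjusted p = 0.00112) and -1.04 (adjusted p = 0.0248). The Rfc3 call in DeltXp_DeltXm was lost without WT_EV 1, DeltXp_DeltXm 1 or DeltXp_DeltXm 2, and with GC content as the mean over transcripts (adjusted p = 0.066), and its change there without correction was 0.03. Rfc4 had changes of 0.41 and 0.53 and Rfc1, the large subunit, 0.14 in both, none of which passed. Pcna, the ring that holds polymerases on DNA, had a change of -0.66 in DeltXp (adjusted p = 0.0587) and of -0.01 in DeltXp_DeltXm. Its fall in DeltXp passed under 6 of the 17 settings, among them GC content as the mean over transcripts (-1.33, adjusted p = 0.006). It has the processed copies Pcna-ps1 and Pcna-ps2, between which reads could be split. Exon bases overlap another gene for Rfc2 (15.1%, Lat2), Rfc4 (12.7%, Eif4a2) and Rfc5 (10.7%, Wsb2).

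Of the flap and ligation genes, Fen1 (chr19:10199132-10204169, minus strand), the nuclease that trims Okazaki fragments, had corrected CPM of 59.1, 74.2 and 30.1 in WT_EV, 8.95 and 12.7 in DeltXp, and 57.9 and 23.0 in DeltXp_DeltXm. DeltXp lay below WT_EV, whereas the DeltXp_DeltXm libraries differed from each other and overlapped WT_EV. Fen1 fell by 2.32 in DeltXp (SE 0.50, interval -3.46 to -1.19, adjusted p = 0.00462), with -0.43 in DeltXp_DeltXm (interval -1.46 to 0.60, adjusted p = 0.474). Gm10143 overlaps 78.8% of its exon bases, so these counts are uncertain. Lig1, which seals the fragments, had changes of 0.04 and 0.42 that did not pass. Before correction the Lig1 changes were -1.80 and -1.10, and both were called lower. Among the subunits of the single-strand binding protein RPA, Rpa3 (chr6:8255936-8259173, minus strand) had levels of 32.6, 23.9 and 14.8 in WT_EV, 36.6 and 35.5 in DeltXp, and 41.6 and 49.2 in DeltXp_DeltXm. Both deletion groups lay above WT_EV. It rose by 0.94 in DeltXp_DeltXm (SE 0.31, interval 0.23 to 1.64, adjusted p = 0.0368), which was lost without WT_EV 2, WT_EV 3, DeltXp_DeltXm 1 or DeltXp_DeltXm 2, and had 0.61 in DeltXp (adjusted p = 0.135). Rpa1 had changes of -0.46 and 0.30 and Rpa2 of -0.16 and -0.28, which did not pass.

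All 5 nucleotide supply enzymes fell in DeltXp, with a median of -1.78, and 2 of them fell in DeltXp_DeltXm, where the median was -0.35. Tk1 (ENSMUSG00000025574, chr11:117815526-117826092, minus strand), the cytosolic thymidine kinase of dividing cells, had corrected CPM of 57.9, 48.3 and 32.9 in WT_EV, 2.53 and 2.81 in DeltXp, and 3.80 and 3.99 in DeltXp_DeltXm. The highest deletion library was far below the lowest WT_EV library. Tk1 fell by 4.11 in DeltXp (SE 0.34, interval -4.89 to -3.34, adjusted p = 6.37e-05) and by 3.57 in DeltXp_DeltXm (SE 0.33, interval -4.31 to -2.83, adjusted p = 0.000146). Its raw counts were 1502, 1665 and 727, then 31 and 56, then 83 and 83. Tyms, which makes thymidylate from deoxyuridylate, fell by 2.26 (adjusted p = 0.000435) and 1.45 (adjusted p = 0.00414), and its processed copy Tyms-ps could take some of its reads. Without correction the DeltXp_DeltXm change of Tyms was -0.60 and did not pass.

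The ribonucleotide reductase genes, whose enzyme turns ribonucleotides into deoxyribonucleotides, fell in DeltXp and were not called in DeltXp_DeltXm. Rrm1 (chr7:102441695-102469771, plus strand), the large subunit, had corrected CPM of 391, 331 and 317 in WT_EV, 115 and 119 in DeltXp, and 284 and 257 in DeltXp_DeltXm. DeltXp stood well below the other groups. Rrm1 fell by 1.57 in DeltXp (SE 0.21, interval -2.03 to -1.10, adjusted p = 0.000367), with -0.35 in DeltXp_DeltXm (adjusted p = 0.17). This direction depends on the correction: without it the change in DeltXp was 0.28 and in DeltXp_DeltXm 1.13, the latter called higher. Rrm2, the small subunit, fell by 0.68 in DeltXp (adjusted p = 0.0276), a call lost without WT_EV 1, WT_EV 2 or DeltXp 1, and with GC content as the mean over transcripts (adjusted p = 0.0505). Dut (ENSMUSG00000027203, chr2:125247190-125258608, plus strand), which hydrolyses dUTP, had levels of 80.9, 81.5 and 83.0 in WT_EV, 24.9 and 22.6 in DeltXp, and 109 and 75.5 in DeltXp_DeltXm. DeltXp was low and DeltXp_DeltXm spanned the WT_EV range. Dut fell by 1.78 in DeltXp (SE 0.24, interval -2.32 to -1.25, adjusted p = 0.000418) and had a change of 0.17 in DeltXp_DeltXm (interval -0.33 to 0.67, adjusted p = 0.565).

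Of the E-type cyclins, Ccne1 (chr7:38097984-38107534, minus strand) had corrected CPM of 52.0, 37.8 and 31.3 in WT_EV, 19.2 and 23.4 in DeltXp, and 43.3 and 23.9 in DeltXp_DeltXm. DeltXp lay below WT_EV and DeltXp_DeltXm overlapped it. Ccne1 fell by 0.92 in DeltXp (SE 0.33, interval -1.66 to -0.18, adjusted p = 0.0413), but the call was lost when WT_EV 1, WT_EV 2, DeltXp 1 or DeltXp 2 was left out, with adjusted p from 0.0696 to 0.175. With GC content as the mean over transcripts, added after seeing the data, its change was -2.02. Ccne2 had changes of 0.31 and 0.84 (adjusted p = 0.0833 in DeltXp_DeltXm), and 17.4% of its exon bases overlap Ints8.

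The members' changes followed their GC content, which ranged from 34.2% to 61.0%. Across the 47 genes, the log2 change before correction had a Pearson r of -0.87 with GC content in DeltXp and -0.87 in DeltXp_DeltXm. Across all genes tested it was -0.60 and -0.57. After correction r was -0.47 and -0.55 over the members, against -0.06 and -0.05 over all genes. These correlations run across genes, which share the same libraries and are not independent replicates. Between 48% and 54% GC, where 20 members lie, 16 fell in DeltXp, beside 26.8% of all tested genes in that class. The medians were -1.71 and -0.07. In DeltXp_DeltXm 12 of the 20 fell, beside 21.7% of all genes in the class, with a median of -0.95 against -0.02. Between 42% and 48%, 7 of 18 members fell and 2 rose in DeltXp, beside 22.8% and 26.4% of all genes there. The medians were -0.26 and 0.09. Of the 6 members below 42%, 1 rose in DeltXp, beside 30.2% of all genes in that class. Their median of 0.28 was close to the 0.25 of all genes there. In DeltXp_DeltXm 3 of these 6 rose, beside 30.0% of all genes in the class, with medians of 0.86 and 0.33. Above 54%, 2 of 3 members fell in each deletion group, beside 27.3% and 24.4% of all genes there. The medians were -1.73 and -0.37 in DeltXp, and -2.59 and -0.22 in DeltXp_DeltXm. A relation to GC content therefore remained within the set after the correction, and its part in these falls was not tested.

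**Figure D3:**
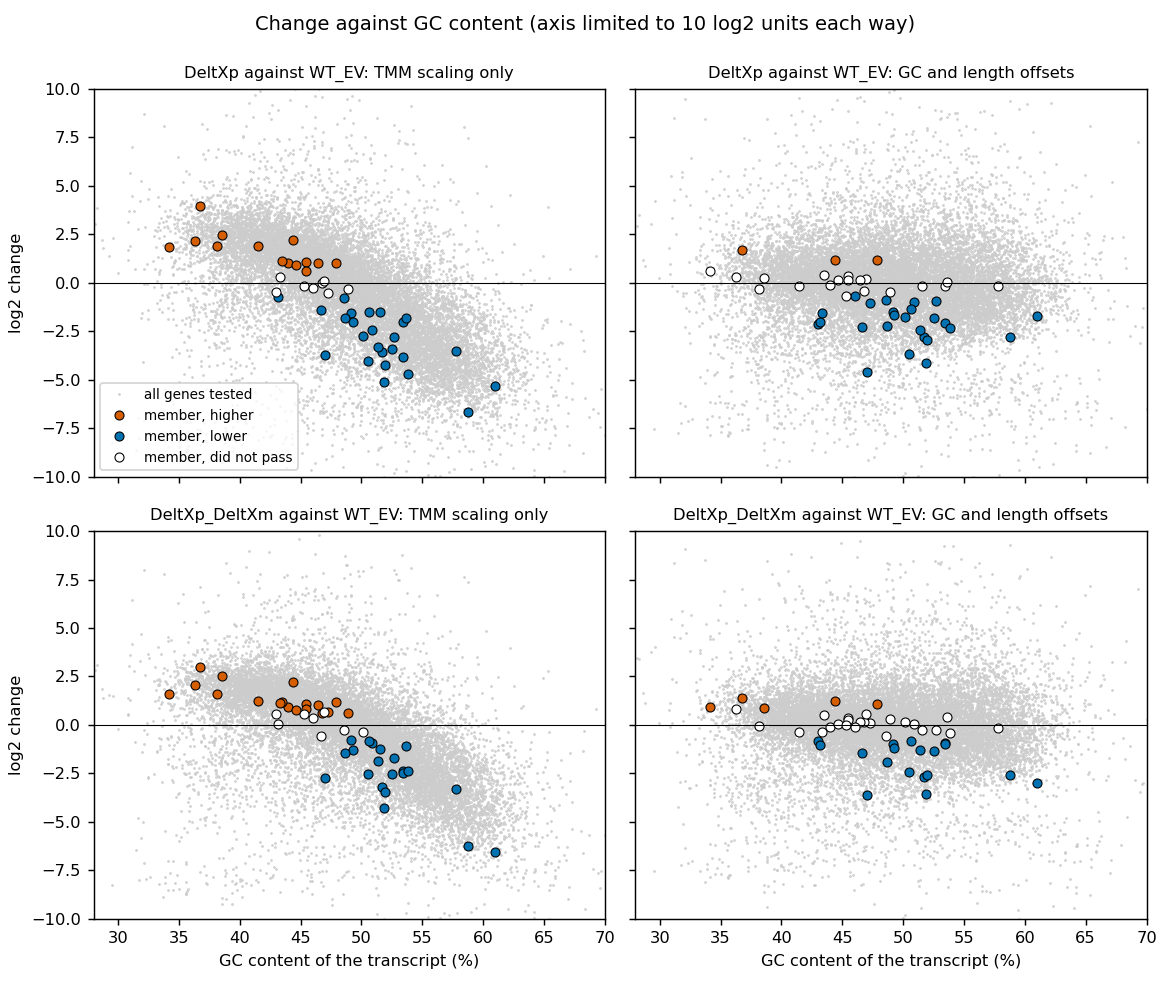
Log2 change against WT_EV (vertical axis) by GC content in percent (horizontal axis) for all genes tested and the 47 members, before (left) and after (right) the correction, with the vertical axis limited to 10 log2 units each way. Over the members r is -0.87 before correction in both comparisons and -0.47 and -0.55 after it.

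The deletion groups were then compared with each other. Levels of 31 members were higher in both DeltXp_DeltXm libraries than in both DeltXp libraries, 3 were lower and 13 overlapped. The share of all genes that lay apart in this way was not counted, so these separation counts show nothing particular to the members. The median log2 difference was 0.44, against 0.01 for all genes, with a range of -1.24 to 1.95. After adjustment 1 member, Dut, passed as higher and 0 as lower in the edgeR test, beside 0.137% and 0.0978% of all genes. At an unadjusted p under 0.05 there were 16 higher and 2 lower. The share of all genes at that p was not counted, so these counts too show nothing particular to the members. DESeq2 with the same offsets called 9 members higher and 1 lower, beside 593 higher and 473 lower among all genes. Without the correction, edgeR called 1 higher and 0 lower, beside 0.280% and 0.163% of all genes. Dut was 1.95 higher in DeltXp_DeltXm (SE 0.25, interval 1.38 to 2.53, adjusted p = 0.0365). Both DeltXp_DeltXm libraries of Dut, at 109 and 75.5, were above the DeltXp libraries at 24.9 and 22.6. This call was lost when WT_EV 1 (adjusted p = 0.0999), WT_EV 2, DeltXp 1, DeltXp 2 (adjusted p = 0.128) or DeltXp_DeltXm 1 was left out.

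The 4 members with the next lowest p all had levels described above. Rrm1 differed by 1.21 (SE 0.22, interval 0.73 to 1.69, adjusted p = 0.0610) and Mcm6 by 1.11 (SE 0.22, interval 0.62 to 1.60, adjusted p = 0.0610). Prim2 differed by 1.31 (SE 0.27, interval 0.70 to 1.91, adjusted p = 0.0669) and Mcm7 by 1.15 (SE 0.24, interval 0.61 to 1.68, adjusted p = 0.0672). In all 4, both DeltXp_DeltXm libraries lay above both DeltXp libraries, and none passed the threshold. Pold1 had the lowest value, -1.24 (interval -2.0 to -0.47, adjusted p = 0.116). The licensing genes were close, with a median difference of 0.20, and the clamp and loader genes had 0.80. Over the members, r between this difference and GC content was -0.04 after correction.

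**Figure D4:**
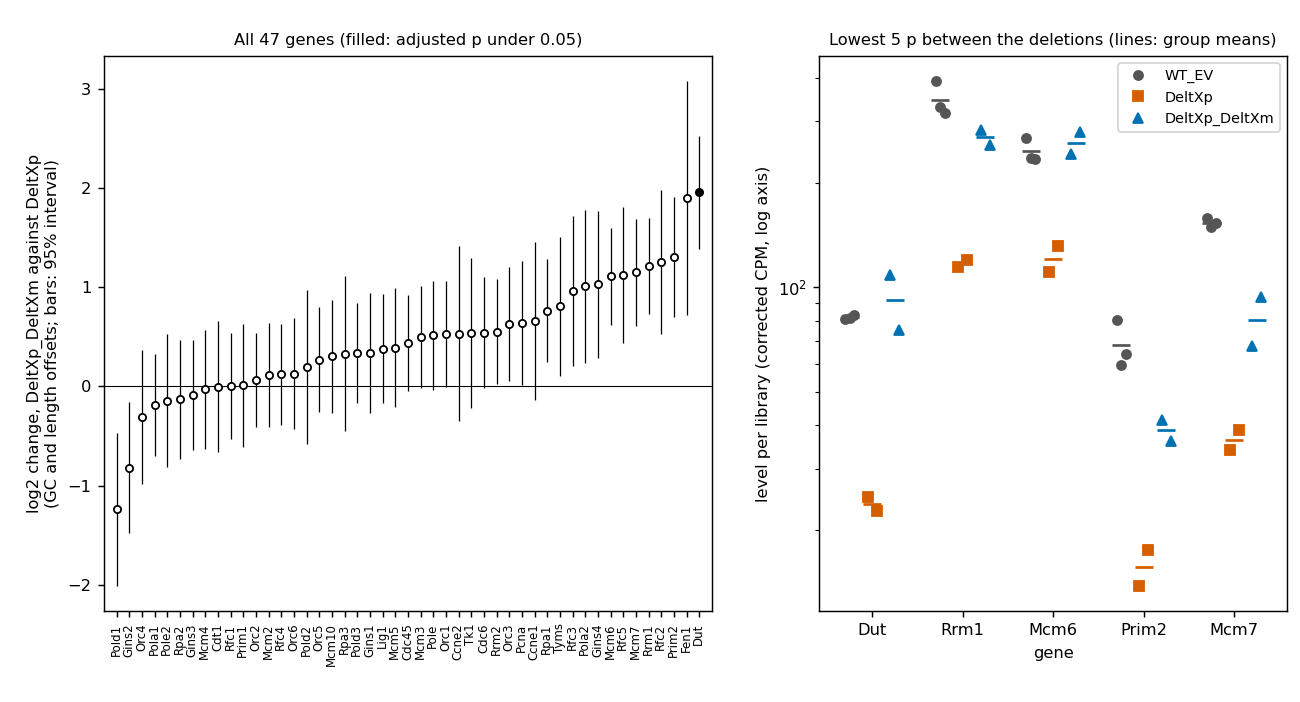
Log2 difference of each member between DeltXp_DeltXm and DeltXp (left, vertical axis, corrected for GC content and length; filled where the test passed), with 95% intervals, and the level in each of the 7 libraries for the 5 members with the lowest p (right, corrected CPM on a log axis, with lines at group means). Dut, at 1.95, is the member whose difference passed the test, and 38 of the 47 values lie above 0. The share of all genes above 0 was not counted, and their median was 0.01.

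WT_clone gives a second wild-type group, but its table was held in part and shares 11512 genes with the 7-library table. Of the members, 10 were in it: Mcm3, Mcm6, Orc2, Orc4, Gins1, Mcm10, Pola1, Prim2, Pcna and Dut. They were tested among 3302 shared genes in all 9 libraries, with corrected CPM relative to those genes. The held part covers only some chromosomes, and these members lie on chromosomes 1, 2 and X. Scaling, correction and the shares of all genes given here therefore rest on that part, not on the whole genome. The wild-type groups themselves differed. Against WT_EV, WT_clone had 1 member higher and 2 lower, beside 15.1% and 11.0% of all genes tested. Orc4 was 150, 148 and 262 in WT_EV, and 521 and 852 in WT_clone, 860 and 818 in DeltXp, and 549 and 683 in DeltXp_DeltXm. WT_clone lay with the deletion libraries. Orc4 was higher in WT_clone by 1.88 (SE 0.32, adjusted p = 0.00363). Mcm10 was lower in WT_clone than in WT_EV by a log2 change of -1.49 (adjusted p = 0.00415), and Mcm6 by -1.05 (adjusted p = 0.0156, lost without WT_EV 1 or WT_clone 2). Without correction the counts were 1 higher and 4 lower, beside 15.3% and 15.4% of all genes.

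Against WT_clone, 1 member was higher and 2 were lower in DeltXp, beside 5.21% and 9.54% of all genes. Mcm3, Mcm6, Mcm10 and Orc4, which were called in DeltXp against WT_EV, did not pass against WT_clone in the edgeR test. Mcm3 had a log2 change of -0.90 (adjusted p = 0.118) and Mcm6 of -0.16 (adjusted p = 0.730). Mcm10 had -0.89 (adjusted p = 0.0523) and Orc4 had 0.29 (adjusted p = 0.622). Dut was 407, 402 and 388 in WT_EV, 295 and 270 in WT_clone, 124 and 110 in DeltXp, and 537 and 364 in DeltXp_DeltXm. DeltXp lay below both wild-type groups. Dut fell by 1.27 against WT_clone (SE 0.27, adjusted p = 0.0132), a call lost without DeltXp 1 or DeltXp 2. Prim2 was 336 and 225 in WT_clone and 64.5 and 83.9 in DeltXp, and fell by 1.92 (SE 0.31, adjusted p = 0.00470), lost without DeltXp 1. Orc2 was 361 and 493 in WT_clone and 776 and 844 in DeltXp, and rose by 0.92 (SE 0.25, adjusted p = 0.0348). The Orc2 call was lost without WT_EV 1, WT_EV 2, WT_EV 3, WT_clone 1, DeltXp 1 or DeltXp 2. Between DeltXp_DeltXm and WT_clone the edgeR test called 0 members in either direction, beside 1.97% higher and 3.85% lower of all genes, with 5 at an unadjusted p under 0.05. The share of all genes at that unadjusted p was not counted. DESeq2 called 2 members, Mcm6 and Orc2, both higher, beside 167 higher and 243 lower among all genes. Without correction, 3 members were higher and 4 lower in DeltXp than in WT_clone, beside 15.2% and 25.0% of all genes, and 3 were higher and 1 lower in DeltXp_DeltXm, beside 7.36% and 17.6%.

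**Figure D5:**
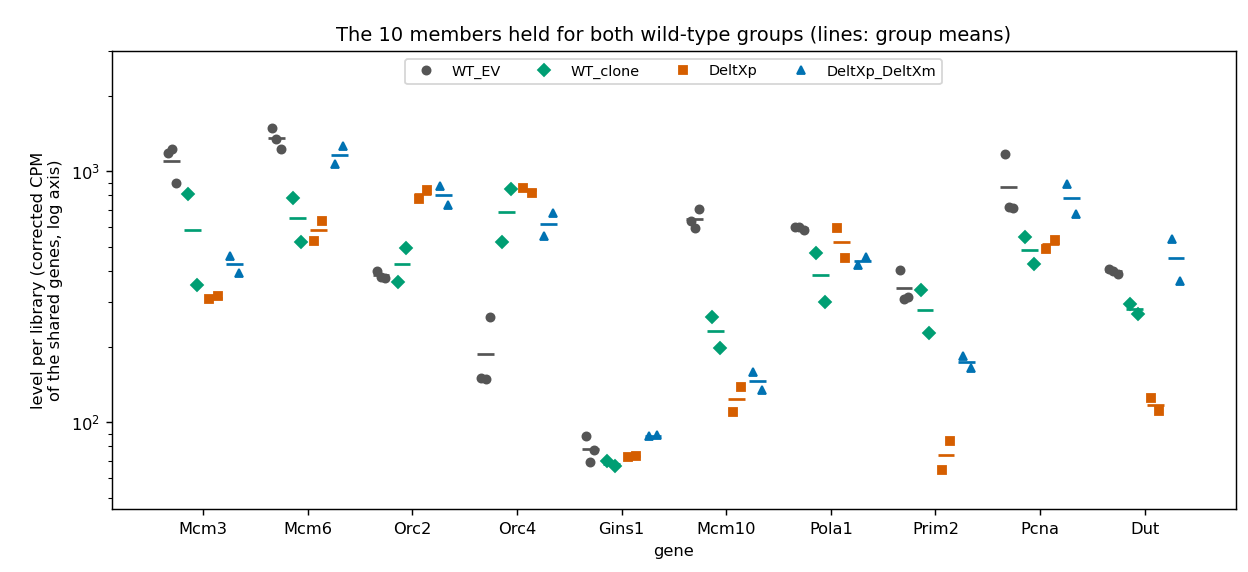
Level of the 10 members held in both tables in each of the 9 libraries (log axis, corrected CPM relative to the shared genes), with 1 point per library. For Orc4 and Mcm10 the WT_clone points lie nearer to the deletion groups than to WT_EV, and for Dut and Prim2 the DeltXp points lie below both wild-type groups.

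Other genes of the pathway were also counted, from lists by function. Of all genes tested, 25.5% were called higher and 24.9% lower in DeltXp, and 22.6% and 20.4% in DeltXp_DeltXm. Of 50 further replication and nucleotide genes, 23 fell and 9 rose in DeltXp (median -0.62), and 12 fell and 10 rose in DeltXp_DeltXm (median -0.20). Chaf1a, the large subunit of the chromatin assembly factor at forks, fell in both groups, with log2 changes of -3.21 and -2.43, and Cad, which starts pyrimidine synthesis, fell by 3.02 in DeltXp. Donson, a replisome factor, rose by 1.96 and 1.76, and Gmnn, the inhibitor of Cdt1, rose by 1.81 in DeltXp_DeltXm. Of 32 tested genes of G1/S control, 10 rose and 10 fell in DeltXp, and 9 rose and 8 fell in DeltXp_DeltXm, shares not far from those of all genes. Rbl1, a pocket protein that binds E2F, had log2 changes of 2.30 and 1.69 after correction and 4.11 and 3.15 before it. Cdkn2c, an inhibitor of Cdk4 and Cdk6, had 5.55 and 4.91 after correction but 1.99 and 1.60 before it. Cdk4 had -1.77 and -1.64 after correction and -3.78 and -3.26 before it. All 3 passed with and without the correction. Of 15 proliferation and mitosis genes, 4 fell and 1 rose in DeltXp, and 2 fell and 5 rose in DeltXp_DeltXm. The median corrected changes of these 15 genes, -0.14 and 0.06, were close to those of all genes, -0.02 and 0.06. As a share of the uncorrected counts, the 15 genes took 0.256% to 0.276% of each WT_EV library and 0.411% to 0.530% of each deletion library, a sum that a few abundant genes can carry. The uncorrected share of the helicase subunits was 0.185% to 0.228% and 0.0649% to 0.0999%. None of the genes in these 3 lists was called between the deletion groups in the edgeR test.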

How the data were processed

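Libraries were prepared from total RNA with a stranded kit of 1 of 2 makes, per the labels' protocols, and the make of each library is not stated. Per the submitters' processing notes, FastQC, STAR 2.7.9a and featureCounts 2.0.1 were used, with the mouse build GRCm38 (mm10). The authors deposited raw counts per gene, in 1 table of the WT_EV, DeltXp and DeltXp_DeltXm libraries and a separate one of WT_clone. How RNA was selected, whether counting used strand and which annotation was counted are not given in these sources.

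The deposited counts were joined by gene identifier to GENCODE M21, in which 55141 of 55401 genes had a symbol and GC content. Counts were filtered with filterByExpr (15331 genes tested, 40070 not), scaled by TMM and tested with the quasi-likelihood test of edgeR 4.0.16 (robust, group as the model term) in R 4.3.3. Per-library offsets came from natural splines of GC content and transcript length, each with 5 degrees of freedom, fitted to log counts with a pseudocount of 0.5. P-values were adjusted by Benjamini-Hochberg over all genes tested, with a threshold of 0.05. The biological coefficient of variation was 32.3%. Intervals are 95% intervals from the SE and a t distribution with the degrees of freedom of the test. The WT_clone table was held in part, for some chromosomes only, and the 9-library fit used 3302 tested genes of 11512 shared. The total counts set the precision of each value, and genes with few counts in the deletion libraries are the least precise. The procedure was also run on simulated counts drawn from its own fitted curves of GC content and length. Such a run cannot show whether the correction is right for these data.

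The members and lists were chosen with earlier results of these data known. Values in every library were given for the member of each role group with the largest called change, for those called between the deletion groups (or the 5 with the lowest p) and for those whose direction of call differed between fits; Mcm2, Mcm4, Pola1, Pold1, Pold2 and Orc2 were added after their values were seen. From each other list up to 3 higher and 3 lower genes could be named. Alternatives were no offsets, offsets for GC content only, no filter, 2 groups in the fit, DESeq2 1.42.0 with and without offsets, replicate blocks and leaving out each library, with GC content as the mean over transcripts and a crossed block added after seeing the data. Libraries are numbered as in their titles, and for DeltXp, whose titles carry 2 numbers, by the one after rep. RefSeq promoters supplied the sequences.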

Additional observations from a re-analysis of the deposited data

How the results depend on the processing

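The number of members called lower in DeltXp (25) and in DeltXp_DeltXm (18) against WT_EV stayed within 1.5 times under each alternative run; leaving out single libraries gave 22 to 26 and 14 to 18. The members behind the lower counts were not all the same. With TMM scaling only, 21 of the 25 lower calls in DeltXp and 15 of the 18 in DeltXp_DeltXm were kept. In DeltXp_DeltXm, Prim2, Rfc3 and Tyms dropped out, and Cdt1, Gins4, Fen1, Lig1, Rpa2 and Ccne1 entered. Among all genes, lower calls went from 3811 to 6149 and from 3133 to 5513 with that setting. The number of members called higher did not stay within 1.5 times. In DeltXp it was 3, and became 14 with TMM scaling only, 6 with offsets for GC content only, 14 with DESeq2 without offsets and 13 with the replicate block without offsets (3 without any single library). In DeltXp_DeltXm it was 5, and became 18, 8, 20 and 14 in the same order, 3 with the replicate block and offsets, and 3 to 6 without single libraries. Calls among all genes moved too. Higher calls in DeltXp went from 3914 to 4930, 4718, 5147 and 4765 in the order given above. In DeltXp_DeltXm they went from 3466 to 4730, 4107, 4787 and 4439, and to 2959 with the replicate block and offsets. Between the deletion groups, the 1 higher call of a member became 9 with DESeq2 with offsets, 9 without offsets and 10 without the filter. It became 9 with the replicate block with the DeltXp numbers crossed (added after seeing the data), and 0 with the 2 groups alone or the replicate block with offsets. Leaving out single libraries gave 0 to 3. DESeq2 with or without offsets and the unfiltered fit each called 1 lower instead of 0. Among all genes, higher calls went from 21 to 593 with DESeq2 with offsets and 547 without them. They went to 680 without the filter and 533 with the crossed block. Lower calls among all genes went from 15 to 473, 620, 583 and 424 in the same order. For DeltXp against WT_clone, TMM scaling only gave 3 higher and 4 lower, the replicate block 0 higher, and single libraries left out 0 to 1 higher and 0 to 4 lower. For DeltXp_DeltXm against WT_clone, TMM scaling only gave 3 higher and 1 lower, DESeq2 2 higher, and single libraries left out 0 to 1 higher. For WT_clone against WT_EV, TMM scaling only, no filter and DESeq2 each gave 4 lower, and single libraries left out 1 to 5. Among the members called against WT_EV after correction, the sign of 3 values changed with TMM scaling only, DESeq2 without offsets and the replicate block without offsets, in that order where given: Rrm1 in DeltXp (0.28, 0.44 and 0.27), Prim2 in DeltXp_DeltXm (0.56, 0.61 and 0.58) and Rfc3 in DeltXp_DeltXm (0.034 and 0.076). The cause of these changes was not tested. Correlations of the deviations of same-numbered libraries ran from -0.21 to 0.05 with DeltXp numbered by the one after rep. With the DeltXp numbers crossed, the correlation between DeltXp and DeltXp_DeltXm was 0.21. With 2 libraries in a group the deviations mirror each other, so these values cannot tell whether same-numbered libraries shared a batch. Depth limits Pold1, Pold2 and Tk1, which had 18 to 83 counts in the deletion libraries.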
